A study of Mus musculus with 12 samples.

Results

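Macrophages that had received microparticles (MP) and nothing else were compared with mock-treated macrophages, 3 libraries against 3. The cells were J774A.1, a macrophage-like cell line from a BALB/c mouse that grows as a continuous culture. All genes with a value of at least 1 in at least 3 of the series' 12 libraries entered the comparison, which gave 11745 of the 11762 genes listed. Control cells are called untreated in the sample labels and mock-treated in the series description, and MP cells had microparticles as their only treatment. The other 6 libraries came from the same line given lipopolysaccharide (LPS), the Toll-like receptor 4 ligand of Gram-negative bacteria, alone or with microparticles (LPS+MP), again 3 biological replicates each. Polyadenylated RNA was sequenced in all of them. The sources used here do not give what the particles were made of, their size, their dose or the time of exposure. A cell line of this kind is a single transformed population and stands in for tissue macrophages only in part.

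Macrophages take up particles through scavenger, Fc, complement and lectin receptors, close the membrane around them with actin, and pass them to lysosomes for digestion. Foreign material can also draw on stress programmes. NRF2 drives antioxidant and glutathione genes, ATF4 drives amino acid supply genes, and SREBP factors drive sterol and fatty acid synthesis. Whether an activated macrophage leans on glycolysis, makes cytokines or stops dividing is commonly read from the RNA of such gene groups.

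Values are CPM, a gene's read count scaled by the size of its library. CPM is not divided by gene length, so it compares libraries for the same gene and does not rank genes by transcript number. Changes are differences of log2(CPM + 1) between MP and control, given ± SE. The words rose and fell are kept for genes with an adjusted p under 0.05 in the limma fit and a change over 2-fold. Genes called higher or lower had an adjusted p under 0.05, whatever the size of the change. By the stricter rule 214 genes rose (1.82% of those tested) and 217 fell (1.85%). By the weaker rule 2415 genes were higher (20.6%) and 2155 lower (18.3%). Counts in gene lists below are to be read beside these shares. The 3 MP values and the 3 control values did not overlap in 3634 genes with MP above (30.9%) and 3301 with MP below (28.1%). All 214 risen and all 217 fallen genes were among them. A gap between the groups is therefore common in these data and is no mark of a strong change. Most changes were moderate: 25 rises and 13 falls exceeded 4-fold, and 3 rises and 1 fall exceeded 8-fold on this scale. Together the 217 fallen genes took 32460 CPM in control and 13340 CPM in MP, while the 214 risen genes went from 7664 to 20750 CPM. Of the called genes, 61 risen and 66 fallen lay under 10 CPM in both groups, where the added constant compresses the change.

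**Figure D1:**
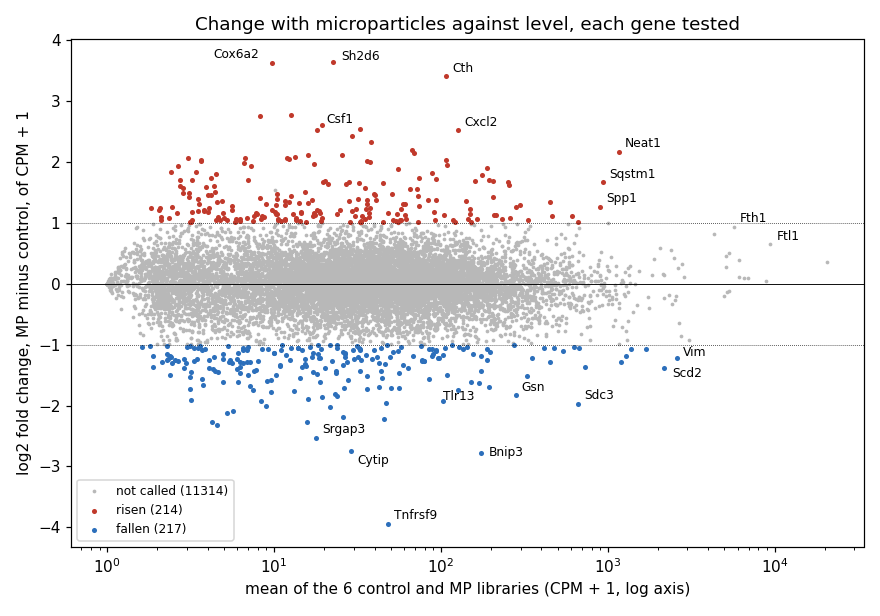
Change with microparticles (log2 of CPM + 1, MP minus control, vertical axis) against the mean of the 6 libraries (CPM + 1, log axis) for each of the 11745 genes tested. Red points are the 214 risen genes, blue points the 217 fallen genes and dotted lines the 2-fold limits; Tnfrsf9 lies lowest, and Vim and Scd2 lie farthest right of the fallen genes.

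The libraries of a group were alike. Correlations across genes lay between 0.9961 and 0.9973 in control and between 0.9937 and 0.9964 in MP, and the SD of a median gene within a group was 0.0845 and 0.0983 (log2). Genes at 1 CPM or more numbered 11230 to 11283 in control and 11228 to 11321 in MP. The cells carried macrophage markers in both groups: all 11 markers looked for were present, F4/80 under its older symbol Emr1. Their summed level was 6360 to 7090 CPM in control and 6560 to 6930 in MP. Single markers went both ways. Itgam (-0.65) and Csf1r (-0.36) were lower, and Fcgr1 (0.99) and Lyz2 (0.26) were higher. Ptprc, the leukocyte antigen CD45, changed by 0.01 ± 0.09 and Tyrobp by -0.10 ± 0.13, neither passing, whereas Emr1, the F4/80 antigen, rose by 1.02 ± 0.07, a change of 0.97 without control replicate 1, 0.99 without MP replicate 1 and 0.98 with median-ratio scaling, each short of the limit. Among genes used as markers of other blood cells, 2 of 9 T cell markers were listed. Cd28 fell (-1.70 ± 0.15) and Lck rose (1.15 ± 0.12), with a summed level of 67.2 to 68.7 CPM in control and 27 to 29.9 in MP. Of 10 neutrophil markers Csf3r and S100a8 were listed, with sums of 44.1 to 47.4 CPM and 74.6 to 79.4 CPM. The cells are of a single line, so these genes are markers by name only. Whether any other cell type was present was not tested. In bulk RNA, fewer cells expressing a gene and less of its RNA per cell cannot be told apart.

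The largest rises joined amino acid and glutathione enzymes with growth factor, lipid mediator and lectin genes. Sh2d6, an adaptor gene of the SH2 domain class (chr6, table coordinates 72513644 to 72521634), stood at 1.77, 3.15 and 2.32 CPM in control replicates 1 to 3 and 41.5, 43.2 and 37.7 CPM in MP (3.63 ± 0.18, adjusted p = 1.34e-09). Cth, whose product releases cysteine from cystathionine, stood at 19.6, 17.7 and 15.8 CPM in control and 193, 194 and 200.1 CPM in MP. In both genes every MP library lay far above every control library. Cox6a2 encodes the heart and skeletal muscle form of a cytochrome c oxidase subunit, and it went from 0.381, 0.52 and 0.465 CPM to 16.3, 16.2 and 18.3 CPM (3.62 ± 0.15). Of 9 muscle markers 4 were listed, with a summed level of 12.3 to 14.3 CPM in control and 27.3 to 30.5 CPM in MP. Cox6a2 itself made up most of the MP sum, while the troponin gene Tnnt3 fell (-1.04 ± 0.22, and -0.98 without MP replicate 1, short of the limit) and Des did not pass (0.39 ± 0.15). The part of muscle-type transcripts in this rise was not tested.

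Csf1, the growth factor on which macrophages depend for survival, measured 8.83, 7.88 and 9.45 CPM in control and 56.2, 55.4 and 53.4 CPM in MP (2.53 ± 0.11, adjusted p = 2.68e-10). Its receptor gene Csf1r was lower, at 922, 980.1 and 1108 CPM against 765, 762 and 805 CPM, without reaching 2-fold (-0.36 ± 0.08). Ptger2, a receptor for prostaglandin E2, rose by 2.60 ± 0.11 and Ptgs2, the inducible cyclooxygenase that starts prostaglandin synthesis, by 2.11 ± 0.12. Ptgs2 stood at 4.29, 5.14 and 5.49 CPM in control and 30.6, 24.3 and 20 CPM in MP, so the groups were apart but the MP libraries were spread. Angptl6, a secreted angiopoietin-like factor, rose by 2.77 ± 0.17 and Gbp8, an interferon-inducible GTPase of a gene family with close copies, by 2.52 ± 0.22. Of the 3 risen genes with the highest CPM in MP, Sqstm1 is described with the autophagy genes. The nuclear RNA Neat1 went from 526, 379.7 and 377 CPM to 1729, 1921 and 2046 CPM (2.16 ± 0.12) and Spp1, osteopontin, from 515, 499 and 566 CPM to 1360.4, 1351 and 1091 CPM (1.26 ± 0.15).

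The largest falls were of cell surface, signalling and hypoxia-linked genes. Tnfrsf9 encodes the costimulatory receptor 4-1BB, and its values of 89, 93.8 and 85.3 CPM in control gave way to 5.05, 5.79 and 3.96 CPM in MP (-3.94 ± 0.11, adjusted p = 3.12e-12). The gene of its ligand, Tnfsf9, was higher at 0.32 ± 0.08. Bnip3, a mitochondrial protein gene induced in low oxygen, went from 317, 312 and 281 CPM to 39.1, 45.9 and 44.7 CPM. Cytip, a scaffold that holds cytohesin away from integrins, fell from 49.8, 46.6 and 51.2 CPM to 5.84, 6.77 and 6.74 CPM, and Srgap3, a Rac GTPase-activating protein gene, from 28.5, 31.6 and 28.3 CPM to 4.63, 3.9 and 4.31 CPM. None of these MP values came near the control range. Sdc3, a heparan sulfate proteoglycan of the cell surface, had the highest CPM of the 25 largest falls (1032, 1046 and 1105 CPM in control, 265, 281 and 265 CPM in MP). Hdac7, a class IIa histone deacetylase (-2.28 ± 0.11), and Ets1, a transcription factor best known from lymphocytes (-1.76 ± 0.18), fell too. Nos2 and Ankrd37 also fell past 4-fold, but Nos2 reached only 6.15, 7.27 and 6.02 CPM in control, and Ankrd37 values there ran from 4.07 to 9.47 CPM.

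**Figure D2:**
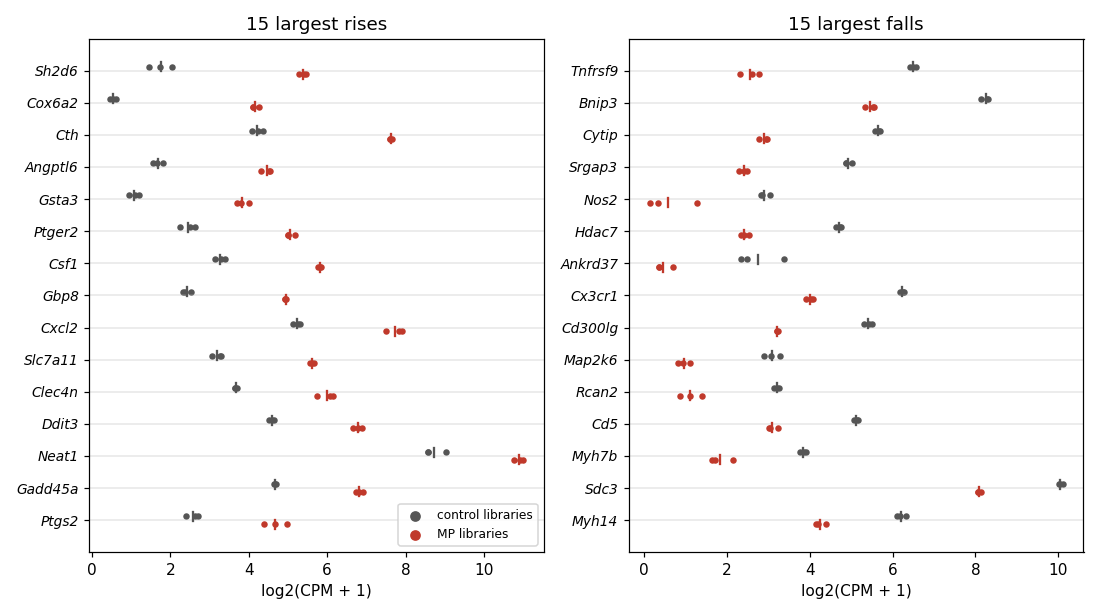
The 15 largest rises (left) and 15 largest falls (right), one point for each of the 3 control libraries (grey) and 3 MP libraries (red), with bars at the group means, on a log2(CPM + 1) axis. The genes were picked from called genes without overlap, so the gap between the groups is part of the choice. Nos2 and Ankrd37 have the widest spread for their level.

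The list of cysteine supply, glutathione synthesis and glutathione-using genes had the largest share of rises. Immediate early genes (28.6%) and ATF4 genes (26.9%) came close, and the lists were chosen with earlier results of these data known. Glutathione, built from glutamate, cysteine and glycine, is the main small thiol that detoxifies peroxides and electrophiles. Of 24 genes tested 7 rose and 0 fell (29.2%, against 1.82% of all genes). Among them 14 were higher and 1 lower, against 20.6% and 18.3% of all genes. The median change was 0.502 against 0.0181 over all genes. Slc7a11, the cystine importer of system xc-, stood at 8.71, 7.33 and 8.55 CPM in control and 47.7, 49.9 and 46.5 CPM in MP (2.42 ± 0.09, adjusted p = 6.93e-11). Gclm, the modifier subunit of the rate-limiting ligase, went from 78.5, 80.1 and 77 CPM to 292, 295 and 299 CPM, while the catalytic subunit gene Gclc was higher by 0.56 ± 0.10 only. The groups stood apart in each of these genes. Glutathione users followed: the transferase genes Gsta3 (2.75 ± 0.15), Gsto1 (1.30 ± 0.08) and Mgst1 (1.15 ± 0.14) rose, as did Esd, which hydrolyses S-formylglutathione (128, 126 and 121 CPM against 379.8, 401 and 382 CPM, 1.62 ± 0.06).

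Of 29 further NRF2 targets that act through thioredoxin, quinones, heme and efflux, 3 rose (10.3%, against 1.82% of all genes) and 0 fell. Among them 17 were higher and 2 lower (median 0.385), against 20.6% and 18.3% of all genes. The risen members were the sulfiredoxin gene Srxn1 (1.13 ± 0.07), the biliverdin reductase gene Blvrb (1.14 ± 0.08) and the glutathione-conjugate exporter gene Abcc1 (1.07 ± 0.08). Prdx1, a peroxiredoxin, came close to the limit, at 478, 466 and 445 CPM in control and 855, 905 and 859.7 CPM in MP (0.91 ± 0.09). Txnrd1, a thioredoxin reductase, was higher by 0.71 ± 0.07. Nfe2l2, the gene of NRF2 itself, did not pass (-0.09 ± 0.07, adjusted p = 0.383), nor did Hmox1 (0.20 ± 0.09). Of 8 oxidative burst genes 1 rose (12.5%, against 1.82% of all genes). Sod2, the mitochondrial superoxide dismutase, went from 93.3, 94.5 and 92.1 CPM to 181, 204 and 203 CPM, while the oxidase subunit genes Cybb (0.05 ± 0.08) and Ncf1 (0.02 ± 0.07) did not pass.

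The ferritin genes gained more CPM than any other gene that passed the test. Ferritin, the cage that holds iron, has a light and a heavy chain. Ftl1, the light chain, measured 7797, 6976 and 7281 CPM in control and 10757, 12418 and 11277 CPM in MP (0.64 ± 0.14), and Fth1, the heavy chain, 3995, 4028 and 3796 CPM and 7489, 7973 and 7046 CPM (0.93 ± 0.11). Both were higher in every MP library and both stayed under 2-fold. Both have many processed copies in the mouse genome, as have several glycolytic and actin genes, and no source used here says how reads shared with such copies were counted. Of 16 iron genes 2 rose (12.5%, against 1.82% of all genes). They were Slc25a37, the mitochondrial iron importer (1.35 ± 0.08), and Cp, ceruloplasmin, a ferroxidase. Cp went from 0.487, 0.393 and 0.588 CPM to 4.63, 4.1 and 4.09 CPM. The exporter gene Slc40a1 was higher (0.78 ± 0.11) and the transferrin receptor gene Tfrc did not pass (-0.14 ± 0.13).

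Amino acid response genes were higher in most members. ATF4 is translated when amino acids are short or proteins misfold, and it switches on transporters, synthetic enzymes and the stress regulators DDIT3 and TRIB3. Of 26 regulators and targets 7 rose (26.9%, against 1.82% of all genes) and 0 fell. Among them 18 were higher and 2 lower (median 0.589), against 20.6% and 18.3% of all genes. Ddit3 went from 23.9, 22 and 23.1 CPM to 109, 118 and 99.4 CPM and Trib3 from 73.9, 74.5 and 77 CPM to 237, 251 and 240.5 CPM. Ppp1r15a, which reverses the translation block, rose by 1.55 ± 0.10, asparagine synthetase (Asns) by 1.12 ± 0.07, the glycine transporter gene Slc6a9 by 1.63 ± 0.11, the neutral amino acid transporter gene Slc1a4 by 1.06 ± 0.09 and the proline enzyme gene Pycr1 by 1.15 ± 0.23. Slc1a4 changed by 0.98 without MP replicate 1, short of the limit. Atf4 RNA was higher by 0.43 ± 0.07. Of 20 cytosolic aminoacyl-tRNA synthetases 14 were higher and 0 lower (median 0.374), against 20.6% and 18.3% of all genes. Only Wars rose, at 1.00 ± 0.09. That call was lost without control replicate 1 or 3 (0.99 each), without MP replicate 1 (0.94) and with median-ratio scaling (0.97). Of 21 endoplasmic reticulum stress and chaperone genes 1 rose (4.76%, against 1.82% of all genes) and 0 fell. Among them 11 were lower and 2 higher (median -0.252), against 18.3% and 20.6% of all genes. Hspa5, the main chaperone of that compartment, stayed at 1208, 1276 and 1417 CPM in control and 1257, 1215 and 1316 CPM in MP, with overlapping groups. The stress sensor gene Ern1 was the member that rose (1.43 ± 0.08).

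Upstream sequences of 3 of these genes and of 1 sterol gene are shown because letters known from ATF4, NRF2 and SREBP binding sites fall in them. Each is the 250 bases before the RefSeq gene start nearest to the start in the table, on the gene's strand, from the RefSeq annotation of build GRCm38.p6. Capitals mark the matched letters on either strand. Slc7a11 (chr3:50443614-50443863, minus strand) holds the ATF4-CEBP composite TTGCATCA 47 to 40 bases before the start and, on the opposite strand, 66 to 59 bases before it.
Slc7a11: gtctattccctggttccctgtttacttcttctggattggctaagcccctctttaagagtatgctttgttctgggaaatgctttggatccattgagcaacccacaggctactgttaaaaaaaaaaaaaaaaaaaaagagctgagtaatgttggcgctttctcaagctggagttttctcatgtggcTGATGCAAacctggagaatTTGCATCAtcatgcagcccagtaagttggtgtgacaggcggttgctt
Pycr1 (chr11:120643749-120643998, minus strand) holds the same composite on the opposite strand, 103 to 96 bases before the start.
Pycr1: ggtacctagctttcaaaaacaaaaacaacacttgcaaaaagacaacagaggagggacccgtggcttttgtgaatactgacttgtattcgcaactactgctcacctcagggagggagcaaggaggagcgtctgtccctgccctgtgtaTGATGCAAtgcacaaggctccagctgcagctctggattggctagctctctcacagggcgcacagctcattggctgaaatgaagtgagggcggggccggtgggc
Gclm (chr3:122245307-122245556, plus strand) holds the antioxidant response element core TGACNNNGC on the opposite strand, 134 to 126 bases before the start.
Gclm: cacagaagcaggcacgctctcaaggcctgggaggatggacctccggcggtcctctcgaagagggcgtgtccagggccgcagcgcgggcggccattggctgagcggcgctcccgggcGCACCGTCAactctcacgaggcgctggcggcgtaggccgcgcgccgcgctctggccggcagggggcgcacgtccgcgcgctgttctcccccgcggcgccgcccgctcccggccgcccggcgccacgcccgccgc
Hmgcs1 (chr13:119690101-119690350, plus strand) holds the sterol regulatory element TCACNCCAC 137 to 129 bases before the start.
Hmgcs1: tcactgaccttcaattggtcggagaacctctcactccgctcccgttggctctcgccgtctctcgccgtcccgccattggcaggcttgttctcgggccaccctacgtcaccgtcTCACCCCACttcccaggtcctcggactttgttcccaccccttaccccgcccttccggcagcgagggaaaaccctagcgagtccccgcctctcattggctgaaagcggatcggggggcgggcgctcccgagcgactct

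Promoters were matched for 161 risen, 150 fallen and 8715 of all genes tested. TTGCATCA, on either strand, was present in 6 of the 161 risen promoters (3.73%), in 0 of the 150 fallen and in 51 of all 8715 (0.585%). Besides Slc7a11 and Pycr1, the 6 included Chchd10, H2-Ob and Pi16, which belong to none of the 50 lists. In the ATF4 list it was found in 3 of 25 promoters, those of Chac1, Nupr1 and Pycr1, and among the tRNA synthetases in Aars and Tars. Chac1 was higher by 0.67 ± 0.10, Nupr1 by 0.89 ± 0.09, Aars by 0.81 ± 0.07 and Tars by 0.42 ± 0.06. The antioxidant core TGACNNNGC was present in 19 of 161 risen promoters (11.8%), 25 of 150 fallen (16.7%) and 1069 of all (12.3%). Of 20 glutathione promoters 3 held it, those of Gclm, Gsta3 and Mgst1. TCACNCCAC was present in 3 of 150 fallen promoters (2%), 1 of 161 risen (0.621%) and 80 of all (0.918%), and Hmgcs1 was its only holder among 16 cholesterol promoters. A match describes the letters in this window and says nothing of binding.

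Cholesterol synthesis genes were lower nearly throughout the pathway. SREBP2 raises these enzymes when cell membranes are short of sterol. Of 23 genes of synthesis and uptake 7 fell and 0 rose (30.4%, against 1.85% of all genes). Among them 22 were lower (median -0.852), against 18.3% of all genes. At the start of the pathway Acat2 stood at 160.4, 164 and 153 CPM in control and 49.6, 54.5 and 63.4 CPM in MP, and Hmgcs1 at 282, 281 and 247 CPM and 126, 119.7 and 122 CPM. Further along, Pmvk, Mvd, Idi1 and Lss fell by 1.02 to 1.27, and the SREBP anchor gene Insig1 went from 259, 245 and 251 CPM to 88.6, 91.7 and 96.5 CPM. Sqle, which epoxidises squalene (-0.85 ± 0.08), and Srebf2, the gene of SREBP2 itself (-0.59 ± 0.09), were lower by less. Fatty acid genes went with them: 4 of 18 fell (22.2%, against 1.85% of all genes) and 0 rose. Among them 12 were lower and 1 higher (median -0.389), against 18.3% and 20.6% of all genes. Scd2, a desaturase that introduces a double bond into fatty acids, lost more CPM than any gene but Vim, from 3031, 3170.0 and 3268 to 1149.6, 1209 and 1264 CPM. Fatty acid synthase (Fasn, -1.04 ± 0.11) and the desaturase genes Fads2 (-1.07 ± 0.08) and Scd1 (-1.06 ± 0.20) fell as well. Fasn missed the size limit without MP replicate 1 (-0.99). Scd1 missed it without control replicate 2 (-0.97), and narrowly without MP replicate 2. Export and storage genes showed 0 rises and 0 falls among 21, too few genes for this to stand out from 1.82% and 1.85% of all genes. Among them 2 were higher and 6 lower, against 20.6% and 18.3% of all genes. The exporter gene Abca1 had overlapping groups (288, 324 and 337 CPM against 342, 318 and 290.1 CPM).

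Glycolysis genes were lower across the pathway. Of 27 genes from glucose uptake to lactate export, 4 fell (14.8%, against 1.85% of all genes) and 0 rose. Among them 20 were lower and 1 higher (median -0.7), against 18.3% and 20.6% of all genes. Pfkl, the liver-type phosphofructokinase of the committed step, went from 259, 257 and 248 CPM to 73.7, 83.7 and 86.5 CPM (-1.64 ± 0.09). Tpi1, which interconverts the triose phosphates, fell from 1853, 1733 and 1757 CPM to 740.0, 791 and 812 CPM. Ldha, a lactate dehydrogenase chain, fell from 1791, 1589.7 and 1701 CPM to 640.3, 718 and 732 CPM. Pdk1, a kinase that keeps pyruvate out of mitochondria, fell by 1.47 ± 0.11. Pkm and Pgk1 were just short of the limit (-0.93 ± 0.08 and -0.92 ± 0.08), the glucose transporter gene Slc2a1 was lower (-0.86 ± 0.09), and Gapdh (-0.21 ± 0.11) and Hk2 (-0.13 ± 0.07) did not pass. Of 24 hypoxia targets 17 were lower and 4 higher (median -0.528), against 18.3% and 20.6% of all genes. By the stricter rule 0 rose and 6 fell (25%, against 1.85% of all genes). Besides Bnip3, Ankrd37 and Pdk1 these were Ndrg1 (509, 492 and 462 CPM against 184, 167 and 158 CPM), the oxygen sensor gene Egln1 (-1.27 ± 0.09) and Fam162a (-1.26 ± 0.12). Hif1a, which encodes the factor that induces them, was higher (0.56 ± 0.11). Of 43 nuclear respiratory chain genes 1 rose, Cox6a2 (2.33%, against 1.82% of all genes), and 0 fell (median -0.0229). Without control replicate 2, 2 of them fell, and without MP replicate 2 or 3, 1 fell. Of 13 mitochondrially encoded genes 4 were higher and 0 lower (median 0.386), against 20.6% and 18.3% of all genes. There mt-Nd5 stood at 2804, 3451 and 3207 CPM in control and 6255, 4988 and 5335 CPM in MP. In the citric acid cycle list Irg1, the itaconate-forming enzyme, rose from 4.85, 5.34 and 3.09 CPM to 10.2, 11.3 and 10.2 CPM (1.11 ± 0.12, and 0.92 without control replicate 3, short of the limit).

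**Figure D3:**
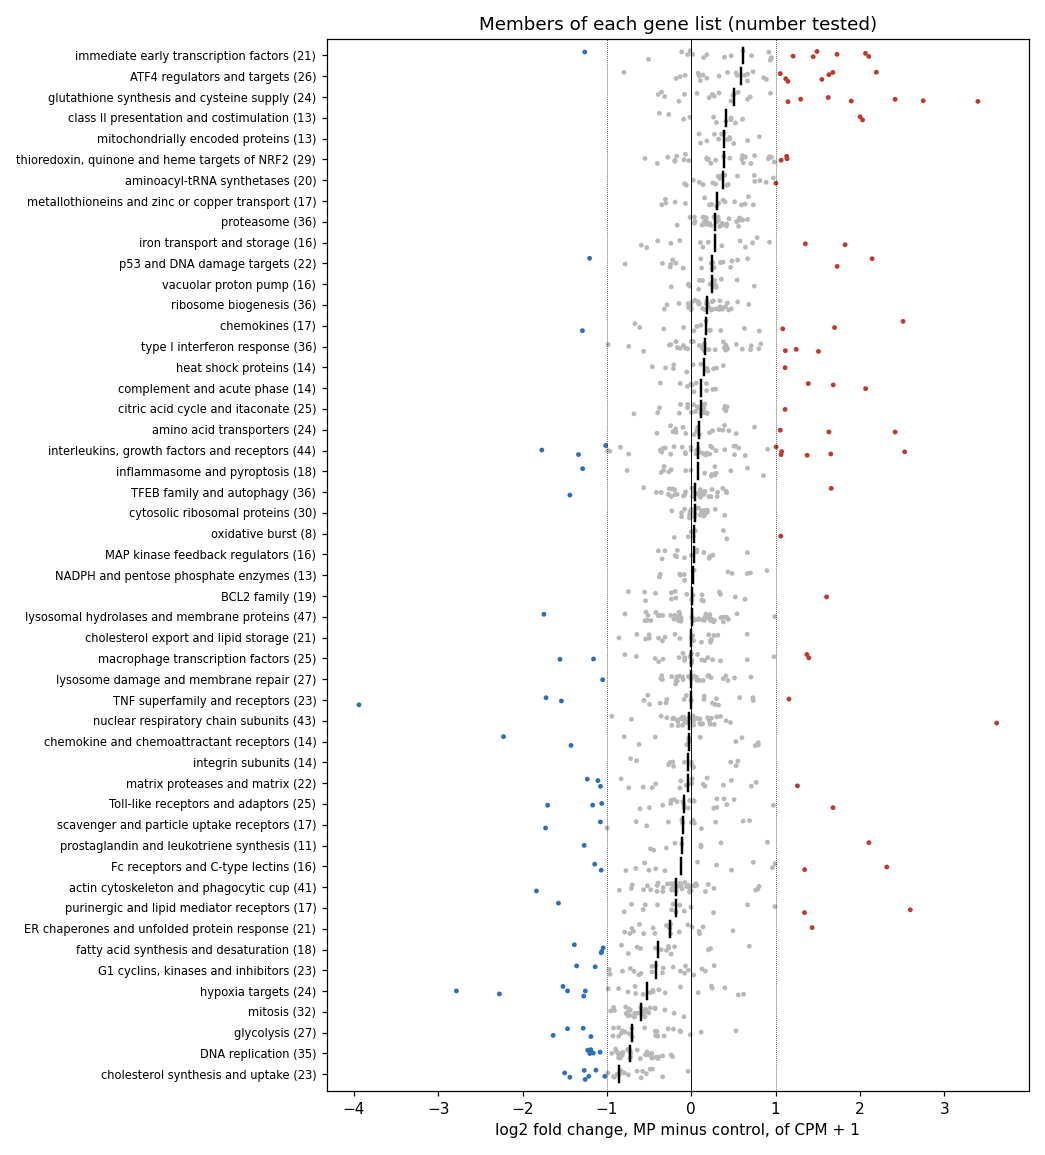
Every tested member of the 50 gene lists as a point at its log2 change (MP minus control), red where risen, blue where fallen and grey otherwise, with the median of each list as a bar and the number tested in brackets. Immediate early, ATF4 and glutathione genes have the highest medians, and glycolysis, DNA replication and cholesterol genes the lowest; the median over all genes is 0.0181.

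The lysosomal list was called about as often as all genes. Of 47 lysosomal hydrolases and membrane proteins 0 rose (against 1.82% of all genes) and 1 fell (2.13%, against 1.85%), with a median of 0.00711. Among them 11 were higher and 13 lower, against 20.6% and 18.3% of all genes. Ctsd, the aspartic protease of lysosomes, measured 6661, 6422 and 7176 CPM in control and 7095, 7049.9 and 7351 CPM in MP, and the membrane protein gene Lamp1 1215, 1177 and 1299 CPM and 1281, 1211 and 1259.7 CPM, both with overlapping groups. Arsb, a sulfatase that degrades glycosaminoglycans, was the member that fell (180.4, 197 and 205 CPM against 61.9, 53.5 and 56.2 CPM, -1.75 ± 0.13). At the other end Ctsl, a cysteine protease, was higher at 669, 632 and 724 CPM against 1258, 1332 and 1437 CPM (0.99 ± 0.08), and it passed the size limit with quantile normalization and without control replicate 3 or MP replicate 1 (1.04 each). Of 16 proton pump subunits 0 rose or fell, too few genes for this to stand out from 1.82% and 1.85% of all genes. Among them 6 were higher and 1 lower (median 0.243), against 20.6% and 18.3% of all genes. Sqstm1, which encodes the autophagy receptor p62 and is also an NRF2 target, rose from 462, 440.4 and 450.0 CPM to 1453, 1463 and 1365 CPM. It was the 1 rise among 36 autophagy genes, beside 1 fall, Atg9b (-1.44 ± 0.16). These counts (2.78% each) lay near the shares of all genes (1.82% and 1.85%). Tfeb, a master regulator of lysosome genes, did not pass (-0.20 ± 0.16). Integrins, the adhesion and complement receptors, had 0 rises and 0 falls among 14, too few genes for this to stand out from the same shares. Among them 3 were higher and 4 lower, against 20.6% and 18.3% of all genes. Itgam was lower at 612, 720.2 and 740.4 CPM against 449, 445 and 424 CPM (-0.65 ± 0.08).

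Lectin and Fc receptor genes went both ways. Among 16 Fc receptors and C-type lectins 2 rose and 2 fell (12.5% each, against 1.82% and 1.85% of all genes). Of these 16, 7 were higher and 7 lower (median -0.119), against 20.6% and 18.3% of all genes. With quantile normalization 4 rose. Clec4n, dectin-2, a receptor for fungal mannans, stood at 11.5, 11.6 and 12.1 CPM in control and 70.1, 66.5 and 52.4 CPM in MP (2.32 ± 0.11, adjusted p = 6.27e-10). Clec4e, Mincle, which binds glycolipids and damaged-cell products, went from 262, 235 and 261 CPM to 685, 660.4 and 586 CPM (1.34 ± 0.10). Clec12a, an inhibitory lectin that senses uric acid crystals, fell from 35.8, 33.7 and 37.1 CPM to 13.2, 13.6 and 20.7 CPM (-1.14 ± 0.15). The Fc gamma receptors went in opposite directions: the high-affinity gene Fcgr1 was higher by 0.99 ± 0.09, just under the limit and past it without MP replicate 1 or 2 or control replicate 1 or 3 (1.01 to 1.05), and the inhibitory gene Fcgr2b by 0.48 ± 0.08, while Fcgr3 fell by 1.07 ± 0.08 and Fcgr4 was lower (-0.50 ± 0.10). Of 17 scavenger and uptake receptors 0 rose and 2 fell (11.8%, against 1.85% of all genes). They were Cd300lf, which binds phosphatidylserine (-1.73 ± 0.11), and the multiligand receptor gene Lrp1, at 2015, 2377 and 2544 CPM in control and 1084, 1102 and 1085 CPM in MP. Lrp1 lost its call with quantile normalization (-0.81). Marco and Msr1, scavenger receptors that bind unopsonised particles, were higher at 0.69 ± 0.11 and 0.29 ± 0.07. Scarb1, the HDL receptor, was lower by almost 2-fold (174, 176 and 186 CPM against 84.1, 87.8 and 95.3 CPM).

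The Toll-like receptor genes that fell, Tlr13, Tlr7 and Tlr8, encode receptors of the endosome. Of 25 receptors and adaptors 1 rose (4%, against 1.82% of all genes) and 3 fell (12%, against 1.85%), with a median of -0.0841. Tlr13, which recognises bacterial ribosomal RNA, went from 274, 293 and 316 CPM to 78.8, 89.5 and 102 CPM (-1.70 ± 0.12), Tlr7, which recognises single-stranded RNA, from 137, 140.0 and 148 CPM to 61.8, 60.8 and 64.7 CPM (-1.17 ± 0.10), and Tlr8 from 38.3, 45.7 and 44.2 CPM to 20.6, 19.1 and 19.9 CPM (-1.06 ± 0.18). All 3 lie on the X chromosome, and no MP library reached the control range of any of them. Tlr9, another endosomal receptor, for DNA, did not pass (-0.17 ± 0.11). At the surface Tlr2, for lipoproteins, was higher at 98.3, 94.6 and 111 CPM against 189.6, 196 and 214 CPM (0.97 ± 0.10), past the limit without control replicate 3 (1.04) or MP replicate 1 (1.01), Tlr1 was higher (0.42 ± 0.10) and Tlr4, for LPS, lower (-0.61 ± 0.11). The risen member was Ticam2, an adaptor of the Tlr4 receptor, from 8.54, 9.49 and 7.7 CPM to 30.6, 29.4 and 28.8 CPM.

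**Figure D4:**
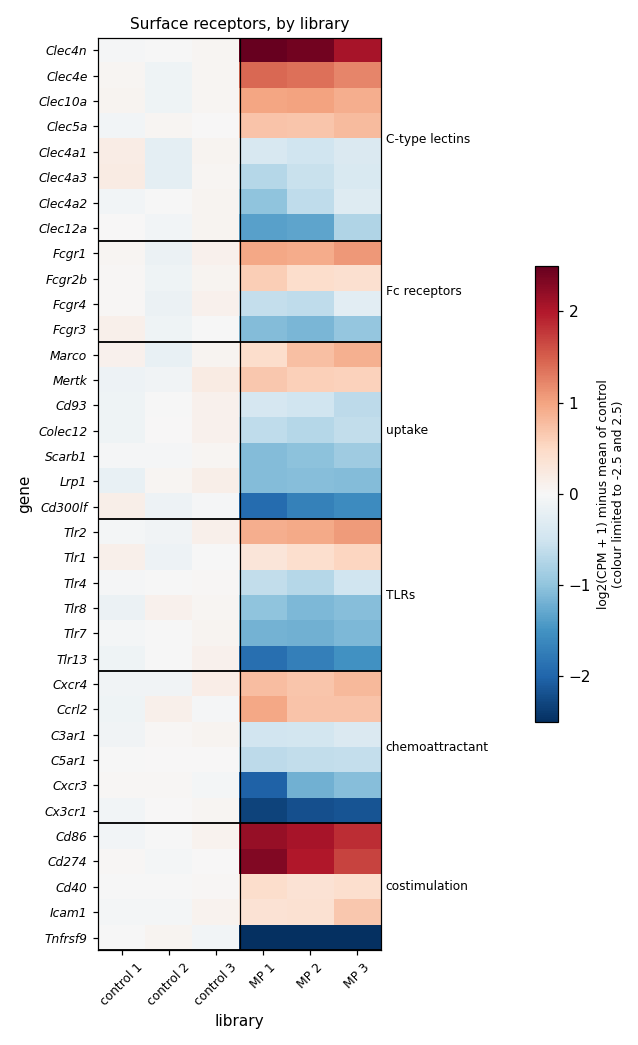
Receptor and costimulatory genes by library, as log2(CPM + 1) minus the mean of the 3 control libraries (red higher, blue lower, colour limited at 2.5). The genes shown were picked by hand, and some list members that changed little, such as Tlr9 and Msr1, are left out. Most of those shown encode surface proteins, but Tlr7, Tlr8 and Tlr13 encode receptors of the endosome. Clec4n, Cd86 and Cd274 are high and Tnfrsf9, Cx3cr1 and Tlr13 low in all 3 MP libraries; the 3 control columns stay near 0.

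Of 17 chemokines 3 rose (17.6%, against 1.82% of all genes) and 1 fell (5.88%, against 1.85%). Cxcl2, a neutrophil attractant, measured 33.7, 37 and 38.7 CPM in control and 225, 238 and 179 CPM in MP, and Ccl3 90.6, 86.5 and 92.2 CPM and 305, 322 and 258 CPM. Ccl2, which draws monocytes, had overlapping groups (-0.09 ± 0.14). Cxcl10 rose only from 0.59, 0.314 and 0.137 CPM to 1.88, 1.82 and 1.79 CPM. Its call was lost without control replicate 3 (0.97) and, narrowly, with quantile normalization (0.996). Of 44 interleukins, growth factors and receptors 6 rose (13.6%, against 1.82% of all genes) and 3 fell (6.82%, against 1.85%). Their median was 0.0849, and with a pseudocount of 0.1 the counts were 11 and 5. After Csf1 came Il1rn, the interleukin 1 antagonist, at 14, 14 and 15.5 CPM against 53.2, 48.2 and 42.4 CPM, then Gdf15, a stress cytokine (1.37 ± 0.19), Pdgfa (1.06 ± 0.13), Osm (1.01 ± 0.12) and Il23a (1.07 ± 0.22), the last reaching 2.9, 2.21 and 1.47 CPM in MP. Il23a missed the limit without MP replicate 1 (0.92), Pdgfa without control replicate 2 (0.99) and Osm without control replicate 2 (0.93) or MP replicate 1 or 2 (0.97 each) and with median-ratio scaling (0.97). The falls were Il15, which sustains natural killer and memory T cells (15, 12.7 and 13.5 CPM against 3.24, 3.44 and 3.25 CPM), and the receptor genes Il18rap (-1.34 ± 0.17) and Il13ra1 (-1.01 ± 0.10). Il13ra1 missed the limit without MP replicate 2 (-0.97), MP replicate 1 (-0.99) or control replicate 3 (-0.98), and narrowly without control replicate 2. Tnf was higher (0.73 ± 0.09) without reaching 2-fold. Il1b, at 0.322, 0.516 and 0.178 CPM in MP, and Il6, at 1.46, 0.982 and 0.406 CPM, were higher (0.29 ± 0.10 and 0.91 ± 0.16) from control values of 0.102, 0.00106 and 0.163 CPM and 0.0205, 0.000171 and 0.0194 CPM, sizes that depend on the pseudocount (1.25 and 3.07 with 0.1).

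Surface signals to lymphocytes changed in both directions. Cd86, which binds CD28 on T cells, stood at 39.1, 40.6 and 43.4 CPM in control and 190.0, 175 and 149 CPM in MP, and Cd274, the inhibitory ligand PD-L1, at 13.5, 12.8 and 13.2 CPM and 69.6, 55.6 and 44.6 CPM. In both genes the lowest MP library was over 3-fold above the highest control library. Cd40 and Icam1 were higher by less (0.41 ± 0.09 and 0.47 ± 0.13). Of 13 class II presentation and costimulation genes 2 rose (15.4%, against 1.82% of all genes) and 0 fell. Among them 8 were higher and 0 lower (median 0.411), against 20.6% and 18.3% of all genes. In the TNF superfamily 3 of 23 genes fell (13%, against 1.85% of all genes) and 1 rose (4.35%, against 1.82%). The falls were Tnfrsf9 and the low-level ligand genes Tnfsf14 (-1.72 ± 0.28) and Tnfsf13b, the B cell factor BAFF (-1.54 ± 0.18). Tnfrsf21 rose (1.16 ± 0.14). Among genes with at least 5 CPM in 3 libraries 1 of the list fell. Among chemoattractant receptors Cx3cr1, the fractalkine receptor of resident macrophages, fell from 71, 74.9 and 76.6 CPM to 14.1, 15.4 and 15.8 CPM and Cxcr3 from 10.4, 10.3 and 9.74 CPM to 1.73, 3.88 and 4.36 CPM, while Cxcr4 was higher (0.76 ± 0.10). Complement C3 rose from 87.6, 94.8 and 105 CPM to 349, 308 and 274 CPM, and the secreted inhibitor gene Slpi from 19, 13.8 and 17.5 CPM to 46, 46.7 and 42.8 CPM. Of 36 type I interferon genes 3 rose (8.33%, against 1.82% of all genes). Among them 14 were higher and 3 lower (median 0.164), against 20.6% and 18.3% of all genes. Oas1g had the highest CPM of those that rose (23, 18.5 and 19.8 CPM against 43.3, 44.2 and 48.4 CPM), a member of a family with close copies.

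Of 21 immediate early genes, which growth and stress signals induce within minutes, 6 rose (28.6%, against 1.82% of all genes) and 1 fell (4.76%, against 1.85%). Their median was 0.616. Among those with at least 5 CPM in 3 libraries 3 rose and 1 fell. Egr1 went from 7.55, 8.24 and 9.93 CPM to 41.6, 44.9 and 34.1 CPM, Nr4a1 from 1.18, 1.77 and 1.67 CPM to 12.3, 9.94 and 7.17 CPM and Egr2 from 0.848, 0.965 and 0.99 CPM to 5.77, 5.5 and 4.97 CPM. Myc, which drives growth, was the member that fell, from 28.8, 31.6 and 30.6 CPM to 11.2, 14.7 and 10.7 CPM. Of 25 macrophage transcription factors tested 2 rose and 2 fell (8% each, against 1.82% and 1.85% of all genes). Klf4 rose by 1.37 ± 0.18 and Cebpa, a myeloid lineage factor, by 1.39 ± 0.16. Maf, a factor of resident-type macrophages, fell from 64.2, 67.5 and 63.6 CPM to 17.4, 24.4 and 23.3 CPM (-1.56 ± 0.20) and Id3 from 33.7, 35.4 and 38.7 CPM to 13.8, 15.9 and 17.1 CPM. Spi1, the gene of the lineage factor PU.1, did not pass (0.20 ± 0.10).

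Several genes of the cytoskeleton fell or were lower. Vim, vimentin, lost more CPM than any other gene, from 3617, 3694 and 3610.0 CPM to 1526, 1594 and 1589 CPM (-1.21 ± 0.07), and the related filament gene Nes fell by 1.06 ± 0.10. Vim lost its call with quantile normalization (-0.83). Of 41 actin genes 1 fell (2.44%, against 1.85% of all genes) and 0 rose. Among them 16 were lower and 4 higher (median -0.179), against 18.3% and 20.6% of all genes. The fallen member was Gsn, gelsolin, which severs actin filaments, at 441, 438 and 431 CPM in control and 124, 122 and 119 CPM in MP. Actg1 was lower at -0.85 ± 0.08 and Tmsb4x, which holds actin monomers, at -0.71 ± 0.12, whereas Actb did not pass (-0.13 ± 0.10) and Capg had overlapping groups. The calcium-dependent membrane binder Anxa2 fell by 1.05 ± 0.08. Of 22 matrix genes 3 fell (13.6%, against 1.85% of all genes) and 1, Spp1, rose (4.55%, against 1.82%). Mmp9, a gelatinase, fell from 711, 740.2 and 740.0 CPM to 368, 379.6 and 278 CPM and Mmp12, macrophage elastase, from 1739.9, 1815 and 2050.5 CPM to 857, 823 and 978 CPM. Mmp12 lost its call with quantile normalization (-0.97), and Mmp9 lost it without MP replicate 3, the library in which it was lowest (-0.96).

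Proliferation genes were lower in nearly every member, by modest amounts. Of 35 DNA replication genes 5 fell (14.3%, against 1.85% of all genes), 0 rose and 34 were lower (median -0.725). Of 32 mitosis genes 0 fell and 29 were lower (median -0.601). Over all genes 18.3% were lower. Uhrf1, which keeps DNA methylation through replication, went from 486, 507 and 480.3 CPM to 187, 211 and 231 CPM, and the ligase gene Lig1 from 214, 213 and 216 CPM to 88.8, 96 and 102 CPM. Mki67, the usual marker of cycling cells, was lower at 953, 1059 and 1053 CPM against 565, 535 and 518 CPM (-0.92 ± 0.11), and the G1 cyclin gene Ccnd1 at -0.97 ± 0.10, past the limit without control replicate 3 (-1.01). Gadd45a, a growth arrest gene, rose from 24.2, 24.9 and 24.5 CPM to 119.6, 111 and 105 CPM and the kinase gene Plk3 from 33.3, 32.6 and 34 CPM to 122, 118 and 99.1 CPM. Cdkn1a, the p53-induced inhibitor p21, did not pass (0.27 ± 0.13). Of 36 proteasome genes 24 were higher and 0 lower with 0 called (median 0.286). Of 36 ribosome biogenesis genes 13 were higher and 2 lower (median 0.189). Over all genes 20.6% were higher and 18.3% lower.

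Adding microparticles to LPS-treated cells tests the same genes in 6 libraries that share none with MP and control. LPS+MP against LPS gave 74 rises (0.63%) and 457 falls (3.89%), or 129 and 341 with quantile normalization. The LPS libraries were the least alike, with a lowest correlation of 0.9774. Without LPS replicate 1, 2 or 3 there were 108, 71 or 99 rises and 476, 450 or 479 falls, in that order. Without the size limit 13% of genes were higher and 22.2% lower. Of the 214 genes risen with MP alone, 23 also rose there (10.7% of the 214, 31.1% of the 74), 1 fell and 156 had the same sign (72.9%), with a median change of 0.334 against 1.26 without LPS. Of the 217 fallen genes 60 also fell (27.6% of the 217, 13.1% of the 457), 0 rose and 202 had the same sign (93.1%), with a median of -0.698 against -1.26. The difference between both effects, tested as an interaction, passed below 0 in 110 of the risen genes and above 0 in 52 of the fallen ones; over all genes it passed below 0 in 432 (3.68%) and above 0 in 120 (1.02%), or in 306 and 193 with quantile normalization. The genes were chosen in the MP and control libraries that also enter this difference, so these counts are a description.

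Some responses had nearly the same size with LPS. Sqstm1 measured 673, 629 and 719 CPM in LPS and 2172, 2379 and 2168 CPM in LPS+MP, a rise of 1.73 ± 0.07 beside 1.66 ± 0.07 without LPS. Nr4a1 rose by 2.15 ± 0.21 and 2.07 ± 0.21, Klf4 by 1.42 ± 0.18 and 1.37 ± 0.18, and Scd2 changed by -1.35 ± 0.09 and -1.39 ± 0.09, with and without LPS in that order. Tlr13 stood at 126, 156 and 108 CPM in LPS and 38.8, 39 and 45.8 CPM in LPS+MP. Other changes were smaller or of the opposite sign. Cth stood at 147, 150.0 and 151 CPM in LPS and 207, 198 and 208 CPM in LPS+MP, so the LPS libraries lay closer to the MP level than to control and the change was 0.45 ± 0.07. Cd86 had overlapping groups there (358, 419.8 and 342 CPM and 368, 375 and 382 CPM). Clec4n was the gene called in opposite directions, from 208, 242 and 222 CPM in LPS to 76.8, 77.1 and 92.7 CPM in LPS+MP (-1.44 ± 0.11). Cx3cr1 lay at about 1 CPM in all 6 LPS-treated libraries, a level at which a fall could not have been measured. Rrm2 was among the 6 fallen genes with a larger fall under LPS (46.2, 61.6 and 56.5 CPM to 4.84, 4.94 and 6.39 CPM).

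**Figure D5:**
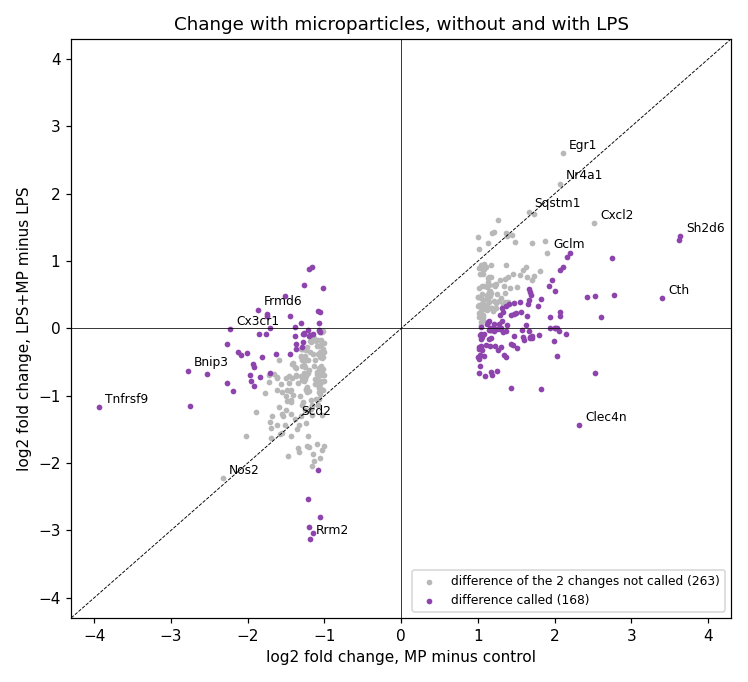
Change with microparticles under LPS (LPS+MP minus LPS, vertical axis) against the change without LPS (MP minus control, horizontal axis), both as log2 of CPM + 1, for the 431 genes called with MP alone. Purple points mark the 168 genes whose difference between both changes passed; most risen genes lie below the dashed line of equal change, and Egr1, Nr4a1 and Sqstm1 lie on or above it.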

How the data were processed

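The 12 libraries were labelled in 4 groups of 3, of which the 6 control and MP libraries carry the comparison. The submitters' processing notes name TopHat2 2.1.1, Trimmomatic 0.36, FastQC 11.5, edgeR, DESeq2 and HTSeq. With build and strand setting not given in the sources used here, overlapping and near-identical genes are uncertain. Per the labels' protocols a directional kit was used. The deposited columns are headed RPKM but were read as CPM, since each sums to between 998867 and 999273 without division by length. A further column is deposited by the authors as average log2 CPM. Start and end matched GENCODE M21 (GRCm38) exactly in 7027 of 11671 matched genes; GRCm38 was therefore assumed for promoters, an assumption no label states. Whole reads were not recovered, so depth is unknown, counting error cannot be given, and p-values rest on the spread between replicates.

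Values were taken as log2(CPM + 1) and 4 group means were fitted over 12 libraries in limma 3.58.1 (R 4.3.3) with a variance trend, with Benjamini-Hochberg adjustment over 11745 genes. Calls needed an adjusted p under 0.05 and over 2-fold. Data simulated on this comparison held 11745 genes with normally distributed noise on the log2 scale. Changes were given only to genes with a control mean of at least 10 CPM. Of these, 0 of 50 changed 1.5-fold, 49 of 50 changed 2.5-fold and 50 of 50 changed 4-fold were called. Recovery at lower levels was not simulated. Alternatives changed the pseudocount, filter, scaling, variance model, fold limit and libraries, and a replicate block. Replicate numbers were read as not pairing the libraries, since deviations of same-numbered libraries correlated at -0.247 to 0.158 and only 3 of 12 correlated best with their own number. Genes and lists were chosen with earlier results of these data known. Named genes were members of the 50 lists and 12 marker lists, the 25 largest rises and falls, the 15 highest in CPM and in absolute difference each way, a few set by name such as Tnf, and the 10 smallest adjusted p for the difference with LPS. The largest rises and falls were taken among called genes whose groups did not overlap. Pi16, Chchd10 and H2-Ob, outside that rule, were chosen after their values were seen. Promoters came from RefSeq (GRCm38.p6), of several starts the 1 nearest the table's.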

Additional observations from a re-analysis of the deposited data

Results flagged for a closer look

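The genes here were picked because the effect of microparticles differed between cells without and with LPS, by the interaction term of the limma fit (the change with MP under LPS less the change without it) with Benjamini-Hochberg adjustment. Each value is that difference in log2 units. Among genes that rose with MP alone, the difference was -3.76 for Clec4n, -2.95 for Cth, -2.72 for Cp, -2.43 for Ptger2, -2.22 for Gadd45a, -2.02 for Cd86 and -1.95 for Slc7a11. Ptger2 changed by 0.17 ± 0.11 in LPS-treated cells and Gadd45a by -0.08 ± 0.09, neither passing, and Cp was lower there (-0.90 ± 0.12). Among genes that fell with MP alone, the difference was 2.76 for Tnfrsf9, 2.14 for Frmd6 and 2.06 for Id3. Tnfrsf9, the 4-1BB receptor gene, still fell in LPS-treated cells, from 220.2, 244 and 282 CPM to 111, 110.3 and 106 CPM (-1.17 ± 0.11). Frmd6, a FERM domain gene, was higher there by 0.27 ± 0.10 and Id3, an inhibitor of helix-loop-helix factors, by 0.91 ± 0.10, at 31.6, 29.6 and 33.3 CPM in LPS and 59.3, 64.3 and 56.1 CPM in LPS+MP. Over the 214 risen genes the difference passed below 0 in 110, and over the 217 fallen genes it passed below 0 in 6 and above 0 in 52. The libraries that chose these genes enter the difference as well, and the levels that LPS alone sets differ from control for many of them.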

How the results depend on the processing

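The call rule rests on a 2-fold limit: without it 2415 genes were higher and 2155 lower with MP, 1531 and 2607 for LPS+MP against LPS, and 757 and 1826 for the difference. A pseudocount of 0.1 gave 335 rises and 297 falls with MP (212 and 213 of the original calls among them) and 123 rises for LPS+MP against LPS. Quantile normalization shared 199 rises and 209 falls with the calls reported, and gave 129 rises for LPS+MP against LPS and 193 for the difference. Leaving out each control or MP replicate in turn gave 198 to 236 rises and 202 to 250 falls. With each LPS replicate left out in turn, the rises ran from 71 to 108 for LPS+MP against LPS and from 98 to 149 for the difference. The numbers did not pair the libraries, and with the replicate block the counts stayed at 214 and 217. Without LPS replicate 2, which stands apart, they were again 214 and 217. Neither setting can alter the size of a change between MP and control, only the estimated spread. The equal counts are therefore no test of the changes. Fewer genes entered with at least 5 CPM in 3 libraries, which left 193 and 180. Depth is unknown, so counting error could not be separated from culture error.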

Other observations

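Some of the largest changes lay outside the lists, and these genes are given singly. Chpf, which polymerises chondroitin, rose from 3.34, 3.83 and 4.23 CPM to 16.9, 21.4 and 18.4 CPM (2.05 ± 0.16), and Extl1, an exostosin-like glycosyltransferase, from 0.45, 0.366 and 0.405 CPM to 6.76, 4.05 and 3.79 CPM (2.02 ± 0.19). Plod2, a collagen lysyl hydroxylase, fell from 33.6, 34.3 and 37.8 CPM to 9.75, 9.55 and 8.68 CPM (-1.81 ± 0.11). Myh14, a nonmuscle myosin heavy chain, fell from 78.6, 68.4 and 72 CPM to 16.8, 17.5 and 20.1 CPM and Myh7b, another myosin heavy chain, from 13.5, 12.5 and 14.1 CPM to 2.28, 2.13 and 3.4 CPM. As in every risen and fallen gene, the groups did not overlap. In LPS-treated cells Chpf (-0.04 ± 0.16) and Extl1 (-0.42 ± 0.19) did not pass.

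Hspa9, the mitochondrial Hsp70, stood at 398, 387 and 378 CPM in control and 905, 828 and 788 CPM in MP (1.11 ± 0.08), and the matrix protease gene Lonp1 at 217, 209 and 222 CPM and 473, 449 and 421 CPM (1.05 ± 0.07). Cd5, a scavenger receptor family gene best known from lymphocytes, fell from 32.4, 34 and 34.7 CPM to 7.25, 7.14 and 8.35 CPM (-2.02 ± 0.15); of the T cell markers listed, Cd28 fell (-1.70 ± 0.15) and Lck rose (1.15 ± 0.12). P2ry12, an ADP receptor, fell from 13.8, 12.8 and 13.1 CPM to 4.43, 3.56 and 3.41 CPM and by the same amount with LPS (-1.57 ± 0.16 without and -1.57 ± 0.16 with it), while Adora2b, an adenosine receptor, rose without LPS (1.34 ± 0.15) and was lower with it (-0.39 ± 0.15). Lcn2, an iron-siderophore binder, went from 0.206, 0.131 and 0.174 CPM to 4.38, 4.54 and 2.95 CPM, and Arg1, the arginine-degrading enzyme, from 2.32, 2.14 and 2.18 CPM to 0.347, 0.0479 and 0.805 CPM. Both were near the lower end of the scale, where the pseudocount sets much of the change.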
